A study of Mus musculus with 4 samples.

Results

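A small set of CpGs in mouse liver DNA was read far more deeply than the rest of the libraries. The rule took CpGs on chromosomes 1 to 19 with 150 or more reads, both strands summed, in every one of the 4 libraries, and left out an interval of chromosome 17 from 39842000 to 39849000 (mm10). It found 413 CpGs, or 0.0258% of the 1600691 nuclear CpGs that reached 10 reads in each library. They were selected on the read depths of all 4 libraries, so their depth is described and not tested. Methylation level was not used by the rule. Joining CpGs that lay within 1000 bp of each other gave 101 loci on all 19 autosomes.

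Reduced representation bisulfite sequencing was run on liver. All mice were C57BL6/N and 6 weeks of age, and the groups are Pnpla7+/+ (libraries WT1 and WT2) and Pnpla7-/- (KO1 and KO2). The labels do not say how the Pnpla7 allele was made, nor whether each library is a different animal. The p-values then rest on the spread between libraries, partly shared over CpGs of like depth, and that spread may be technical. The files held 50413170 to 60535892 reads over cytosines per library, WT1 being the shallowest. The tissue label cannot be checked from deeply read CpGs, which include no marker of a cell type.

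In this assay restriction enzymes cut DNA at sites with a CpG, and bisulfite turns unmethylated cytosine into uracil, which is read as thymine, so the share of reads that keep a cytosine is the methylation level. A mammalian genome holds many sequences in numerous near-identical copies, among them the ribosomal RNA genes, the satellites beside centromeres and recent segmental duplications. Where an assembly holds fewer copies than the genome does, reads from several copies can be placed on 1 assembled position. A level there is then an average over copies. The working name of these CpGs calls them multicopy. Copy number was not tested here, since no genome sequence was used, and they are called deeply read below.

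Their median depth was 445 reads in WT1, 503 in WT2, 453 in KO1 and 481 in KO2, against 21, 25, 25 and 25 for the other analysed autosomal CpGs. They held 0.766% to 0.818% of each library's reads. The deepest had 16988 reads in KO2. At the threshold, the shallowest deeply read CpGs had 151 reads in their lowest library, as at 88246029 in Mroh2a on chromosome 1, at 171063786 in Fcgr3 on chromosome 1 and at 22588843 in Myo3a on chromosome 2. The nearest CpGs left out had 149 reads at 20233353 on chromosome 12, and 147 reads at 88242699 on chromosome 1 and at 46906080 on chromosome 15. For 75 methylated among 150 reads, counting error (95% Clopper-Pearson, exact) spans 41.7% to 58.3%. For 0 methylated among 150 its upper bound is 2.43%, and the limit of 3 counts is 2%. For 50 among 1000 it spans 3.73% to 6.54%. These intervals cover counting error only, since amplified reads carried no count of molecules.

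RefSeq promoter windows (GRCm38.p6, 250 bases before to 50 after a gene start) held deeply read CpGs in 3 of 32851 cases, and their upstream stretches are shown because they are the deeply read loci whose sequence was at hand. Capitals mark the CpGs that passed the depth rule. All 3 loci had low or fairly low levels.
Hjurp, chr1:88277580-88277699, minus strand: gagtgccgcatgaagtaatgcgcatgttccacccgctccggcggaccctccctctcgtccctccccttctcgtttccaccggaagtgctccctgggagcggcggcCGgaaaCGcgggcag
LOC115490388, chr6:3182927-3183115, plus strand: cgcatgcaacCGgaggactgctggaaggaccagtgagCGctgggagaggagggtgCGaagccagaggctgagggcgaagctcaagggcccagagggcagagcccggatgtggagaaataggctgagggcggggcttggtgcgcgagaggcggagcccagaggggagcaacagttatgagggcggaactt
Slc6a11, chr6:114131121-114131240, plus strand: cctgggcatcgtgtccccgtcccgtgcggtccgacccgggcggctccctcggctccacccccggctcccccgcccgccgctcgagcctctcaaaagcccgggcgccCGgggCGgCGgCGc

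The Slc6a11 stretch holds 19 CpGs, 4 of them deeply read, and 2 further deeply read CpGs lie just after the gene start. The Hjurp stretch holds 13 CpGs, 2 of them deeply read, with 6 more after the start. The LOC115490388 stretch holds 11 CpGs and all 3 deeply read ones of its window. The letters CCGG, the MspI site, occur 4 times in the Slc6a11 stretch, 3 times in the Hjurp stretch and 2 times in the LOC115490388 stretch. TCGA, the TaqI site, occurs 1 time in the Slc6a11 stretch and 0 times in the other two. Both sites read the same on either strand, and 52.8% and 22% of all promoter windows hold them. Of the 277 stretches of 24 bases in the LOC115490388 window, 71 also occurred in the promoter window of another gene, on either strand. None of the 277 did so for Hjurp or for Slc6a11, while 26.8% of all windows shared at least 1. Promoter windows cover little of the genome, so this count does not measure copy number.

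The deeply read CpGs fell into lowly and highly methylated sets. Taking the mean of the 4 libraries, 210 (50.8%) were below 20%, 63 (15.3%) between 20% and 80%, and 140 (33.9%) above 80%. The shares were 45.5%, 18.2% and 36.4% among the other analysed autosomal CpGs, and 70.8%, 12.6% and 16.7% among the 3625 CpGs whose lowest library had at least 75 and under 150 reads. Deep loci made up a larger share of the low loci, with 18 of 28 at 500 or more reads per CpG. The counts were 13 of 45 highly methylated loci and 4 of 28 intermediate loci, although the deepest loci of all were highly methylated. Levels between 40% and 60% were seen at 12 deeply read CpGs (2.91%), against 4.21% of the others.

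**Figure D1:**
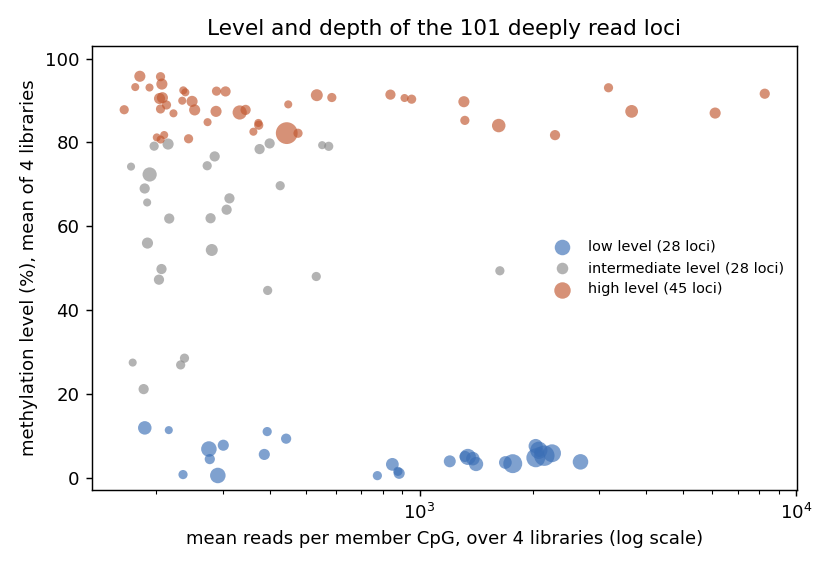
Each point is 1 of the 101 loci, placed by its mean reads per deeply read CpG (x, log scale) and its methylation level (y, percent), both over the 4 libraries; larger points hold more CpGs. The 28 low loci lie below 12% and reach 2677 reads, the high loci reach 8263 reads, and few points lie between 30% and 60%.

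Position in genes and strands also differed from those of the other analysed autosomal CpGs, in description. Annotated genes held 53 of the 101 loci, 20 more lay within 10 kb of a gene and 28 lay farther away. Genes held 53.3% of the deeply read CpGs and 74.3% of the other analysed autosomal CpGs. Reads came from 1 strand at 269 CpGs (65.1%, with under 1% of reads on the other strand), of which 107 were forward and 162 reverse. The share was 47.8% among the other analysed autosomal CpGs and 56.1% among the deep CpGs of the left-out interval. It was 8.28% among CpGs with at least 75 and under 150 reads in their lowest library. At least 10 reads on each strand in every library were found at 136 CpGs (32.9%, against 16.7% of the other analysed autosomal CpGs). There the strands differed by a median of 1.51 percentage points, against 1.19 for the others. Of the 101 loci, 19 were single CpGs and 23 held 5 or more, and the loci with 2 or more spanned a median of 63.5 bp. CpGs of a locus therefore often share reads, and neither they nor loci of 1 repeated sequence are independent measurements.

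Lists of genes known for repeated copies or repeated neighbours were searched by position. Of 16 duplicated genes found in the annotation, 5 are on the X chromosome, outside the rule, and of the other 11 Sfi1 held deeply read CpGs. Of 21 small nuclear and ribosomal RNA genes found, Rn18s-rs5 lies in the left-out interval of chromosome 17, where 433 CpGs had 150 or more reads in every library. None of the other 20 held a deeply read CpG or lay within 10 kb of one. Gm10925, the 1 gene found of 7 in a nuclear copy of mitochondrial DNA on chromosome 1, held none. None of 13 satellite-linked gene models was found in the annotation.

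No deeply read CpG was called between the genotypes. Of 413 CpGs, 411 could be tested, and 0 reached an adjusted p under 0.05 with at least 10 points, against 0.0248% of all CpGs tested (314 of 1263975; moderated quasi-binomial model with limma's shrinkage). Only 1 of the 413 passed 10 points, and the lowest adjusted p among them was 0.75. An unadjusted p under 0.05 was reached by 20 of them, or 4.87%, against 4.9% over all CpGs tested. The other model run, limma on log ratios, called 0 of them and also 0 over all CpGs tested. The count of 20 depends on the model and the libraries. With the chromosome 17 interval left out of the prior it was 48 (11.7%, against 4.9% over all CpGs tested). With 1 prior for all depths it was 102 (24.8%, against 3.85% over all CpGs tested). It also changed when a library was left out, but such a fit leaves 1 library in a group, so its counts are not given. Without the minimum of 10 points the count stayed at 0, against 0.025% over all CpGs tested. Fisher's exact test on summed reads, which ignores the spread between libraries, also called 0 at 10 points, against 444 over all 1263975 CpGs tested. Of 81 tiles of 1 kb that hold deeply read CpGs, 0 were called (adjusted p under 0.05 and at least 10 points), against 0.0611% of all tiles tested. An unadjusted p under 0.05 was found in 1, against 5.7%. The largest tile difference was 4.93 points, so the minimum of 10 points alone left no tile to call. A prior shared by all tiles called 0 as well, but 27 of the 81 had an unadjusted p under 0.05 with it (33.3%, against 6.31%). In simulated reads at these depths the CpG model recovered 81.8% of differences of 20 points, 43.3% of differences of 10 points and 4.48% of differences of 5 points. Recovery meant an adjusted p under 0.05 over 202875 CpGs, with no minimum difference. The changed CpGs had levels above 5% and short of the highest, so recovery at the lowest and highest levels was not simulated. The left-out interval was included. The simulated spread between libraries was set to 1 fixed value for all CpGs, and the recovery depends on it. The 0 calls at 10 points say nothing about smaller differences. The 0 without a minimum says little about differences of 10 points or less.

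The differences were small. They ran from -5.54 to 10.5 percentage points with a median of 0.808, 395 of 413 being within 5 points of 0. The standard error of a difference had a median of 1.7 points. The other analysed autosomal CpGs had a median difference of 0, and 70.7% of them were within 5 points. These are shallower and so vary more by counting alone. The mean over the deeply read CpGs was 42.4% in WT1, 41.9% in WT2, 42.6% in KO1 and 43.4% in KO2. The KO libraries lay above the WT libraries, by 0.838 points between a WT mean of 42.1% ± 0.385 and a KO mean of 43% ± 0.525 (SD, n = 2). Counting each locus once, the means were 57% ± 0.271 and 57.8% ± 0.809, a difference of 0.79 points that was smaller than the KO SD. Weighting the CpGs by their reads turned the difference to -1.66 points, at 33.9% and 34.8% in WT1 and WT2 and 32.8% and 32.6% in KO1 and KO2. Lowly methylated CpGs held 64.1% and 62% of the reads in WT1 and WT2, and 66.1% and 66.7% in KO1 and KO2.

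**Figure D2:**
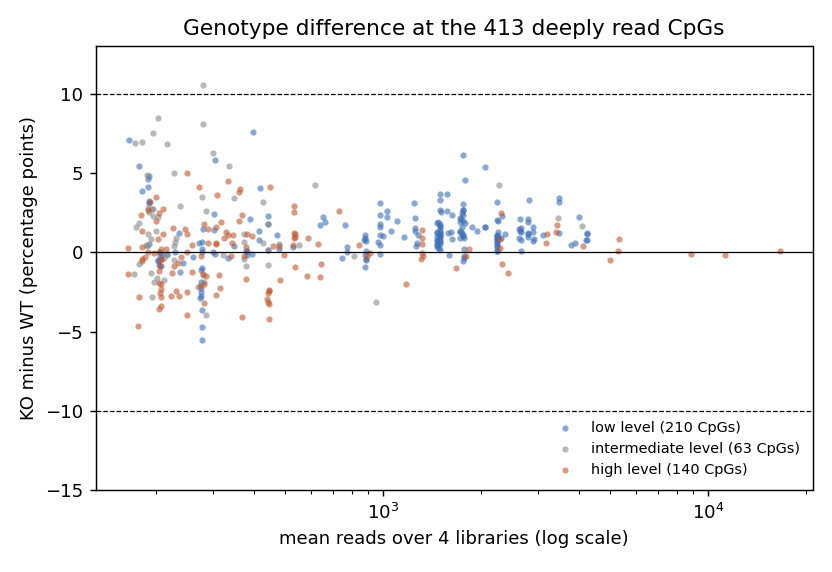
Each point is 1 of the 413 CpGs, placed by its mean reads over 4 libraries (x, log scale) and its difference, KO mean minus WT mean in percentage points (y); dashed lines mark 10 points either way. One CpG lies past a dashed line, at 10.5 points, and the low CpGs above 1000 reads lie mostly above 0.

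Library order differed between the level classes. Both KO libraries lay above both WT libraries at 147 of 413 CpGs and below them at 44, against 14.6% above and 12.7% below over all CpGs tested. Of the 210 low CpGs, 106 lay above (50.5%) and 18 below (8.57%), against 8.6% and 8.48% of the other low autosomal CpGs tested. Of the 63 intermediate ones 17 lay above (27%) and 1 below (1.59%), against 19.7% and 14.5% of others of that class. Of the 140 highly methylated ones 24 lay above (17.1%) and 25 below (17.9%), near the 15.9% and 14.4% of others. These others are shallower. The same class shares stand beside counts within single loci below, whose CpGs share reads. WT2 was the lowest library at 156 of the 210 low CpGs (74.3%), against 7.34% of the other low ones. Equal levels count as neither lower nor higher. The other low CpGs had a median level of 0% in WT1 and in KO2. Such ties hold down all their shares given here, so the contrast with the deeply read low CpGs is not like for like. With WT1 as the WT library, 116 of them had both KO libraries above it; with WT2 alone, 162 did.

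Most low CpGs with the KO libraries above, 89 of 106, lay in the deepest low loci. A set of 18 low loci with 500 or more reads per CpG, a boundary drawn after the values had been seen, held 154 CpGs. Averaged over these loci, the level was 4.2% in WT1, 2.93% in WT2, 4.65% in KO1 and 4.83% in KO2. WT2 was the lowest library at 15 of the 18. The KO libraries were both above the WT libraries at 13 and both below at 1. Over all 101 loci, these included, the counts were 37 and 8. The WT mean was 3.56% ± 0.899 and the KO mean 4.74% ± 0.126 (SD, n = 2), a difference of 1.18 points that fell to 0.545 without WT2 and rose to 1.82 without WT1. In the 10 low loci under 500 reads, which hold 46 CpGs, WT2 was lowest at 5, and both KO libraries were above at 4 and below at 1.

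The left-out interval of chromosome 17 showed the same order of libraries. It holds Rn18s-rs5, annotated as a pseudogene and named for 18S ribosomal RNA, and an end of the lncRNA gene AY036118, and 433 of its CpGs had 150 or more reads in every library. Its level was 5.49% and 3.39% in WT1 and WT2, and 6.23% and 6.5% in KO1 and KO2. WT2 was the lowest library at 97.5% of its CpGs. Mitochondrial cytosines, in the same libraries, read as methylated at 0.395% and 0.442% in WT1 and WT2 and at 0.432% and 0.407% in KO1 and KO2, so WT2 was the highest there. Whether incomplete conversion plays a part in the low levels was not tested.

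**Figure D3:**
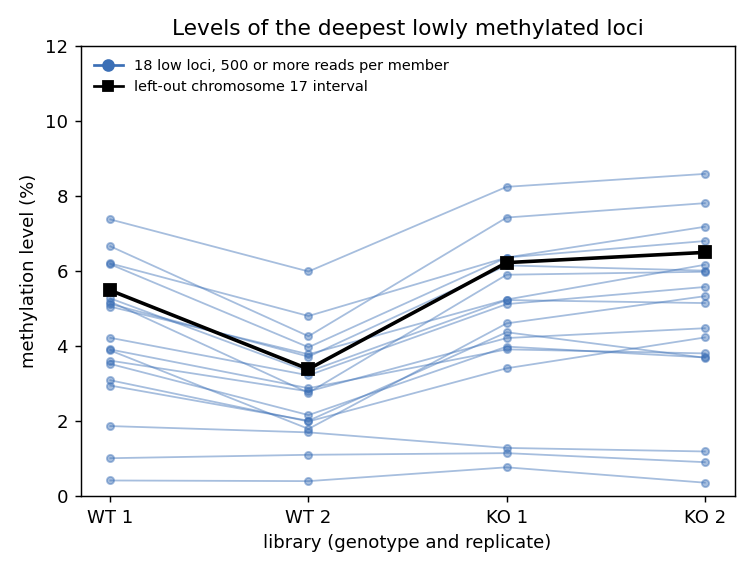
Methylation level (y, percent) in each of the 4 libraries (x) for the 18 low loci with 500 or more reads per CpG, each locus a line joining its own values, and for the left-out interval of chromosome 17 in black. WT2 is lowest for 15 of the 18 loci and for the interval, while the 3 loci at the bottom, under 2%, do not dip there.

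Among the low loci, the one with most deeply read CpGs was in the lncRNA gene Gm36876 on chromosome 11 from 109011698 to 109011929, with 19. Its level was 5.12% and 3.72% in WT1 and WT2 and 6.15% and 6.01% in KO1 and KO2, at 1855 to 2397 mean reads. Within it, levels of single CpGs ran from 2.78% to 11.6%, and 13 of the 19 had both KO libraries above both WT libraries. A locus of 16 in Zc3h7a, a zinc finger gene, lies on chromosome 16 from 11144050 to 11144122. It measured 5.27% and 3.32% in WT and 5.23% and 5.15% in KO, so WT1 was level with KO and WT2 stood alone. A further 16 lay on chromosome 17 from 36231275 to 36231483, 950 bp from Gm18604, at 3.52% and 2.16% in WT and 3.99% and 3.7% in KO.

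A locus of 14 in Cdk8, which encodes a kinase of the Mediator complex, lies on chromosome 5 from 146261012 to 146261295. Its level was 6.18% and 3.97% in WT1 and WT2 and 6.36% and 6.8% in KO. On chromosome 6 from 3201432 to 3201558, 13 CpGs measured 6.66% and 4.26% in WT and 7.43% and 7.81% in KO, the widest difference of the 18 loci at 2.16 points (WT SD 1.69, KO SD 0.271). On chromosome 16, 11 CpGs shared by Cmss1 and Filip1l measured 5.18% and 2.76% in WT and 5.9% and 5.98% in KO. On chromosome 10 from 11492033 to 11492176, 10 CpGs measured 3.61% and 2.79% in WT and 4.22% and 4.48% in KO, at 2300 to 3040 mean reads. These loci thus shared the order with WT2 lowest, on 6 chromosomes, and their KO differences were 0.892 to 2.16 points.

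The 3 least methylated loci with at least 3 CpGs were those in Hjurp, Gm11100 and Slc6a11. Hjurp encodes the chaperone that places the centromeric histone CENP-A, and its 10 CpGs around the gene start, some of them printed above, measured 0.429%, 0.652%, 0.569% and 0.45% in WT1, WT2, KO1 and KO2. The genotypes overlapped, and WT2 was highest. In Gm11100 on chromosome 14, 4 CpGs measured 1.01% and 1.1% in WT and 1.15% and 0.908% in KO, again overlapping. Slc6a11 encodes a GABA transporter, and its 6 CpGs measured 3.09% and 1.99% in WT and 3.41% and 4.23% in KO, with reads on the reverse strand. Within this locus single CpGs ran from 0.157% to 5.67%. The LOC115490388 CpGs shown above measured 21.9%, 16.5%, 24.2% and 22% in the same library order.

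A low locus on chromosome 8 went the other way. Its 10 CpGs from 20122739 to 20122803, in no annotated gene, measured 6.69% and 9.66% in WT1 and WT2 and 5.76% and 5.25% in KO1 and KO2. Both KO libraries lay below both WT libraries at 8 of the 10, and WT2 was highest. It held the 2 CpGs with the lowest differences of all. The one at 20122749 measured 7.85% and 13.5% in WT and 5.21% and 5.04% in KO, a difference of -5.54 points (SE 1.98; adjusted p = 0.75, moderated quasi-binomial model, limma). The one at 20122760 differed by -4.72 points.

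The deepest loci of all were highly methylated. On chromosome 2 from 98666262 to 98666504, 36095 bp from the nearest gene, 3 CpGs had 8125 to 8390 mean reads and measured 91.1% and 91.6% in WT and 91.5% and 92.1% in KO. A second locus of that chromosome, from 98662629 to 98662904, measured 86.9% and 87.1% in WT and 87.2% and 88.4% in KO over 6 CpGs. On chromosome 14 from 19415740 to 19415799, 4 CpGs measured 86.9%, 87.1%, 87.2% and 86.8% at 4122 to 7545 mean reads. On chromosome 5 from 142864170 to 142864175, 2 CpGs measured 92.5% and 92.7% in WT and 93.4% and 93.5% in KO. In the chromosome 5 pair the KO libraries lay above the WT libraries, by 0.862 points, and at the chromosome 14 locus the groups overlapped with a difference of 0.012 points. Not all CpGs of these loci were alike, since those of the second chromosome 2 locus ran from 55.7% to 93.7%.

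Depth profiles over the libraries differed from locus to locus. The ratios below are not scaled to library totals. WT1 had the lowest total, 50413170 reads, against 59437109 in WT2, 59953688 in KO1 and 60535892 in KO2. In the 18 deepest low loci, reads per CpG relative to WT1 had medians of 1.09 in WT2, 1.27 in KO1 and 1.28 in KO2, close to 1.11, 1.29 and 1.32 in the chromosome 17 interval. The highly methylated locus at 19415740 on chromosome 14 had ratios of 1.83, 1.69 and 1.4 in the same order, and the one at 3000399 on chromosome 9 had 1.79, 1.53 and 1.47. At 3024321 on chromosome 9 they were 2.47, 2.14 and 1.68, from 206 reads in WT1 to 509 in WT2. These 3 loci were shallowest in WT1 and deepest in WT2, so the genotypes overlapped in depth. The level at 3000399 was 83.8%, 84.6%, 83.9% and 83.7% in WT1, WT2, KO1 and KO2.

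**Figure D4:**
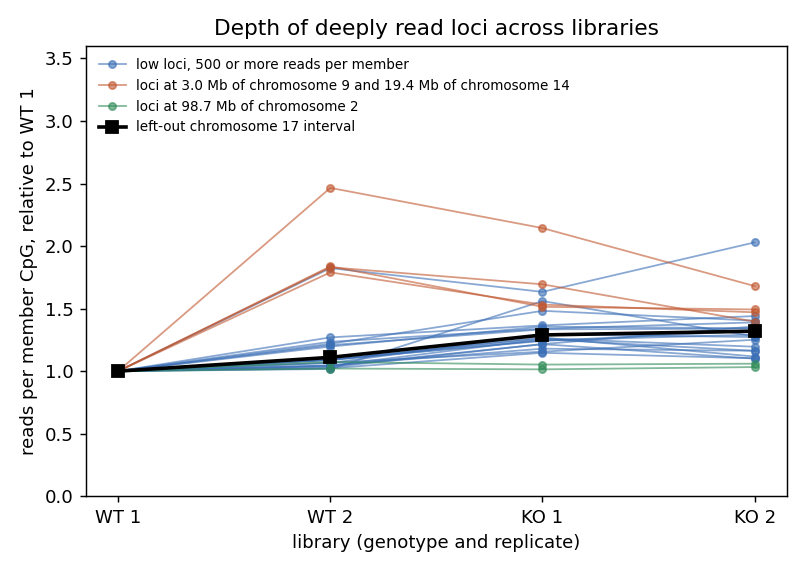
Mean reads per deeply read CpG relative to WT 1 (y) in the 4 libraries (x), each line joining the values of 1 locus: the 18 deepest low loci in blue, loci of chromosomes 9 and 14 in orange, 2 loci of chromosome 2 in green and the left-out interval in black. Reads are not scaled to library totals, of which WT 1 has the lowest. The orange lines peak in WT 2 at 1.79 to 2.47, the green lines stay near 1, and most blue lines follow the black one.

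On chromosome 2 the forward-strand depth was nearly the same in all libraries although their totals differ. At 98666262 it was 4094, 4106, 4103 and 4103 reads in WT1, WT2, KO1 and KO2, and at 98666272 it was 4073, 4084, 4081 and 4079. Reverse-strand depth at 98666503, within the same locus, was 16207, 16695, 16541 and 16988. Whether a limit on depth in the authors' processing applies there was not tested, and the sources used here do not state one.

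The loci with the largest depth ratios between libraries, scaled to library totals, were in Efl1, a GTPase gene of ribosome maturation, at 2.14-fold between KO1 and KO2, and on chromosome 1 from 122357195, at 2.11-fold between KO2 and WT2. The chromosome 9 locus at 3024321 followed at 2.09-fold and a locus near Impact on chromosome 18 at 1.91-fold. The 5 Efl1 CpGs had 462, 635, 704 and 333 mean reads in WT1, WT2, KO1 and KO2, yet measured 89.7%, 91.3%, 91.7% and 92.2%. The Impact locus had 233, 205, 272 and 399 mean reads and measured 3.43%, 5.69%, 5.03% and 3.59%.

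The locus on chromosome 1 from 122357195 to 122357229 had the largest difference in level as well. It measured 58.9% and 59.1% in WT1 and WT2 and 62.6% and 66.9% in KO1 and KO2, at 252, 166, 339 and 357 mean reads. At 122357222 the level was 65.3% and 59.6% in WT and 72.6% and 73.4% in KO, a difference of 10.5 points (SE 2.96; adjusted p = 0.75, moderated quasi-binomial model, limma). Its neighbour at 122357228 measured 47.6% and 50.9% in WT and 53.2% and 61.5% in KO, and the third CpG of the locus differed by -1.46 points. The other large differences were 8.43 points at 119616133 on chromosome 13 near Tmem267, 7.59 at 61198658 on chromosome 19 and 7.5 at 85623983 in Sp140. At each of these CpGs both KO libraries lay above both WT libraries, and none passed the test.

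Sfi1, which encodes a centrin-binding protein of the centrosome, and the neighbouring pseudogene Pisd-ps1 formed the densest region. Between 3123894 and 3195233 on chromosome 11, 12 loci held 56 deeply read CpGs, 47 of them in Sfi1. The other listed CpGs in this span had a median of 18 reads, against 12.8 in the 100 kb on either side. By locus, levels ran from 5.55% to 90.3%, and the genotypes differed by -1.7 to 3.89 points. Over all 101 loci, both KO libraries lay above WT at 37 and below at 8. In this region they lay above at 5 of the 12 loci and below at 1. That 1 locus, from 3192902 to 3193628, held 22 CpGs and measured 83.5% and 82.6% in WT1 and WT2 and 82% and 80.7% in KO1 and KO2. Both KO libraries lay below WT at 12 of the 22 CpGs. The lowest differences among these were -4.22 points at 3193471 and -4.09 at 3193478 (adjusted p = 0.75 for both, moderated quasi-binomial model, limma).

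**Figure D5:**
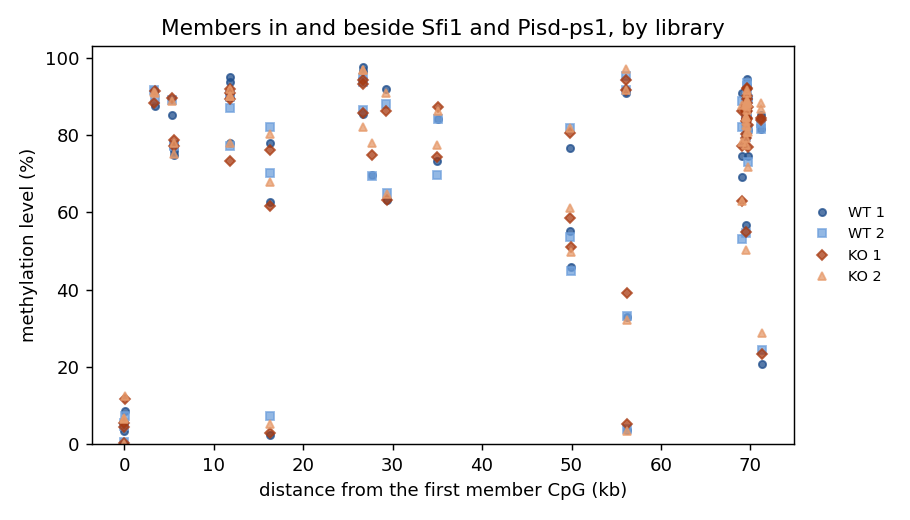
Methylation level (y, percent) of the 56 deeply read CpGs in and beside Sfi1 and Pisd-ps1, by distance from the first of them (x, kb) and by library (symbols). Neighbouring CpGs can differ more than the libraries do, as at the CpG measuring 2.43% to 7.39% between neighbours above 60%.

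Neighbouring deeply read CpGs could differ by most of the scale. Of 271 pairs no more than 50 bp apart, 7 (2.58%) differed by 50 points or more in their mean level, and 5 (1.85%) did so in every library. The shares in every library were 0.117% for the other analysed autosomal CpGs and 1.47% for those with at least 75 and under 150 reads. In Sfi1 the CpG at 3180032 measured 90.8%, 95.2%, 94.2% and 97.2% in WT1, WT2, KO1 and KO2, and the one 21 bp on measured 3.8%, 3.85%, 5.29% and 3.37%. At 3140187, also in Sfi1, the level was 2.43% to 7.39%, between neighbours at 76.1% to 82.1% and 61.5% to 70.1%. In Apaf1, whose product forms the apoptosome, 91071035 on chromosome 10 measured 0% to 0.99% and 91071051 measured 49.3% to 51.9%. The genotypes overlapped within the Sfi1 steps, and each of the named steps was present in both genotypes.

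Among loci with at least 3 CpGs, the 3 nearest 50% held such steps. The Apaf1 locus averaged 46.8% ± 0.632 over the WT libraries and 47.7% ± 1.29 over the KO libraries (SD, n = 2). The locus in Sfi1 from 3140154 averaged 50.5% ± 4.31 and 49% ± 3.01. On chromosome 1 from 177659773 to 177659831, 5 CpGs averaged 54.7% ± 0.186 and 53.9% ± 2.31 although single CpGs in it ran from 12.7% to 94.4%. The locus in E030030I06Rik, chosen after its values had been seen, held no such step, and its 2 CpGs averaged 49.5% ± 0.272 and 49.2% ± 0.0135 at 1426 to 1810 mean reads. In none of these was the genotype difference larger than the SD of both groups, apart from E030030I06Rik, where it was -0.369 points.

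A pair of further regions of chromosome 1 held several loci. From 88218365 to 88287221, 7 loci with 19 CpGs lay in the Ugt1a genes, which encode glucuronosyltransferases of bilirubin and drug metabolism, in Mroh2a and in or near Hjurp. The other listed CpGs in this span had a median of 39.2 reads, against 11.8 in the 100 kb on either side. Levels by locus ran from 0.525% to 95.7%. Both KO libraries lay above WT at 1 of the 7 loci and below at 0, against 37 and 8 of all 101 loci. The CpG at 88246029 in Mroh2a had the next largest difference below 0, with 94.4% and 96.6% in WT and 87% and 94.7% in KO, and the KO libraries differed more than the genotypes did (difference -4.66 points, SE 2.36; adjusted p = 0.75, moderated quasi-binomial model, limma). From 85592450 to 85629787, 4 loci with 6 CpGs in Sp140 and Sp110, which encode nuclear body proteins of immune cells, measured 70.9% and 69.9% in WT and 71.8% and 74.5% in KO.

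The most methylated loci with at least 3 CpGs lay in Itgb5, an integrin gene, near the olfactory receptor gene Olfr478 and in Gm21112. In that order the WT means were 95.7% ± 1.46, 94.8% ± 0.857 and 92.1% ± 2.22, the KO means were 95.8% ± 0.41, 93% ± 1.79 and 92.2% ± 0.271 (SD, n = 2), and the genotypes overlapped at all 3. In Eef2, the translation elongation factor gene, 8 CpGs on chromosome 10 averaged 87.1% ± 0.397 and 87.2% ± 0.231. On chromosome 12, a locus from 20233532 differed by replicate number and not by genotype, at 68% and 67.6% in WT1 and KO1 and 75.5% and 78.2% in WT2 and KO2. Its neighbour from 20231567 showed the same order, at 63.2% and 65.1% against 72.1% and 75.6%. In Adgrb3, a gene of an adhesion receptor, 3 CpGs with 2158 to 2385 mean reads measured 80.8% and 80.1% in WT and 82.9% and 83% in KO. The Eef2, Adgrb3 and chromosome 12 loci were chosen after their values had been seen.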

How the data were processed

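The authors deposited, for each library, a track of methylation level and a track of read depth, both on mm10 and made with GBSA per the file headers. BWA 0.7.12 and MACS are listed, per the submitters' processing notes, but not what each did. Filters and the treatment of reads with several placements are not stated in any label or header. The deposited values are signed scores, a level of 0 to 1 or a whole number of reads with a minus sign on the reverse strand. Level times depth was whole at 100% of cytosines (tolerance 1e-06), which gave methylated reads, and both strands of a CpG were summed.

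CpGs that reached 10 reads in each library, and 1-kb tiles with at least 3 of them, were tested with a quasi-binomial model and Benjamini-Hochberg adjustment over all CpGs or tiles. The dispersion was shrunk with limma 3.58.1 toward a prior set in bins of mean depth, from features at 5% to 95%, and held at 1 or above, since at 500 or more reads the prior was 7.41 against 1.08 below 20 reads. At a mean of 500 or more reads, where 202 deeply read CpGs lie, each CpG took the prior value and not its own spread. The SE carries this dispersion. In simulated reads, 1.15% of calls were false. The members, lists and tests were chosen with earlier results of these data known. By a rule, the loci named had most CpGs, most reads, the largest depth ratios or extreme levels, and the CpGs named had the largest differences. Genes and positions come from RefSeq (GRCm38.p6). Libraries of the same number were not taken as pairs: with 2 pairs, and a correlation of their deviations of -0.00316 over all CpGs and 0.252 over the members, the labels give no shared source. R 4.3.3, pandas 2.3.3 and matplotlib 3.10.9 were used.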

Additional observations from a re-analysis of the deposited data

How the results depend on the processing

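No deeply read CpG or tile was called under any alternative run, the replicate block (0 CpGs of 413 and 0 tiles) included. With all 4 libraries the largest tile difference was 4.93 points, and 1 of the 413 CpGs passed 10 points. The minimum of 10 points therefore largely fixed these zeros in advance. Without a minimum difference the count at an adjusted p under 0.05 (limma shrinkage) was also 0. With Fisher's exact test on summed reads it was 28. With the chromosome 17 interval kept it was 2 of 846 CpGs. Both lie inside that interval, since the 413 deeply read CpGs held 0 in the same fit. Leaving out each library gave 0 to 16, the 16 being without WT1, when WT2 is the WT library. Such a fit leaves 1 library in a group, so no conclusion is drawn from it. The mean difference over CpGs of 0.838 points became -1.66 weighted by reads, 1.39 on the reverse strand and 1.39 with the interval kept, and ran from 0.467 to 1.21 with a library left out. Over loci it ran from 0.218 to 1.36, and over the deepest low loci from 0.545 to 1.82. The count of low CpGs with both KO libraries above WT, 106, was 13 in loci under 500 reads, and 116 to 162 with 1 WT library. At 171063786 on chromosome 1 the difference of 1.61 points became -0.526 without KO2 and 3.75 without KO1. The priors in depth bins rest partly on the interval: without it, the prior at 500 or more reads was 3.64, and 48 CpGs had an unadjusted p under 0.05. With 1 prior for all tiles, 6 tiles reached an adjusted p under 0.05 (limma) and 0 were called.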

Other observations

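Sex chromosomes were outside the rule. On X, 22 CpGs had 150 or more reads in every library and measured 76.1% and 76.3% in WT1 and WT2 and 75.6% and 76% in KO1 and KO2. On Y, 47 such CpGs in 6 loci measured 84% and 87.5% in WT and 84.7% and 87.2% in KO, so the replicates of a genotype differed more than the genotypes did.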
